A study of Danio rerio with 10 samples.

Results

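Axon and cell guidance genes encode the ligands and receptors that steer growing axons, migrating cells and sprouting vessels, and that keep neighbouring cell groups apart. Members were all genes of the count table whose symbols belong to the semaphorins (sema), plexins (plxn), neuropilins (nrp1, nrp2), ephrins (efna, efnb), Eph receptors (epha, ephb), Slits, Robos, netrins (ntn), Unc5 receptors or Dcc. This gave 60 of 14650 genes. One of them, unc50, is taken by its symbol alone: it encodes a Golgi protein and is no Unc5 receptor, which leaves 59 guidance genes, 35 ligands and 24 receptors. RNA came from whole embryos of zebrafish with 17 to 18 somites, kept at 28 °C, in 2 groups of 5 biological replicates with 1 library each. The wild type is the ABTU strain, and the other group is a tpcn2 mutant line (labelled TPC2), for which the labels give neither the allele nor the strain. Whether the groups are siblings, or replicates separate clutches, is also not given in the sources used here, so genotype cannot be told apart from strain background or clutch. tpcn2 encodes an ion channel of lysosomes through which calcium leaves them.

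Total counts were 17890367 to 22498643 per library. tpcn2 lay at 47.1 to 81.1 CPM (counts per 1000000 counts, scaled between libraries) in the 5 wild-type libraries and at 6.72 to 10.3 CPM in the 5 mutant libraries. Wild-type replicate 1 stood apart from the other libraries on the second principal component of all tested genes, which held 10.1% of the variance. None of the guidance genes lay among the 50 nearest tested genes on either side of tpcn2 in the RefSeq gene order of the GRCz12tu assembly (0 of the 59 members that could be placed). On the same chromosome as tpcn2 lie 2 members, ntn4, which was called higher, and efnb3b, which was not called.

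Secreted class 3 semaphorins mostly repel cells that carry neuropilins, which bind the ligand, together with plexins, which signal to the cytoskeleton. Slits leave the midline and repel cells with Robo receptors. Netrins attract through Dcc and repel through Unc5 receptors. Ephrins and Eph receptors act where cells touch and draw sharp borders, among them those of rhombomeres and somites and the one between artery and vein. In the trunk at this stage the first motor axons are about to leave the spinal cord, neural crest cells migrate and vessels assemble.

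Guidance genes changed in both directions, with more members higher than lower in the mutant. All 60 passed the filter on low counts. Of these, 16 were higher and 4 lower (edgeR's quasi-likelihood test with Benjamini-Hochberg adjustment over 11871 genes, adjusted p under 0.05). The share called was 33.3%, against 42.2% of all tested genes, so change as such was not more frequent among guidance genes than elsewhere. The higher members made up 26.7%, against 20.6% of all tested genes, and the lower members 6.67%, against 21.6%. The median log2 fold change was 0.07 for guidance genes and -0.0011 for all tested genes, and the median absolute change was 0.20 against 0.22. All mutant libraries lay above all wild-type libraries for 10 members (16.7%), against 13.7% of all tested genes, and below them for 2 members (3.33%), against 15%. Changes were small: 10 of the 20 called members moved by at least 0.5 on the log2 scale (16.7% of the 60, against 17.4% of all tested genes), and 1, sema3d, by more than 2-fold, against 5.68%. The excess of higher members depended on mutant replicate 2. Once it was left out, 12 members were higher and 9 lower, beside 2146 higher and 2338 lower of all genes. With all 10 libraries the counts were 16 and 4, beside 2442 and 2569 of all genes. The number of lower members also moved with other libraries. It was 7 after dropping wild-type replicate 1, and 2 after dropping either wild-type replicate 2 or mutant replicate 3. In that order, 2701, 2426 and 2317 of all genes were lower in the same fits. By family, the calls fell on 5 of 18 semaphorins, 4 of 6 plexins, 3 of 4 neuropilins, 3 of 4 Slits, 2 of 4 netrins, unc5b, and 2 of 9 ephrins, with 0 of 8 Eph receptors and 0 of 3 Robos. In whole embryos, a change in RNA per cell and a change in the number of cells that carry a transcript cannot be told apart.

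**Figure D1:**
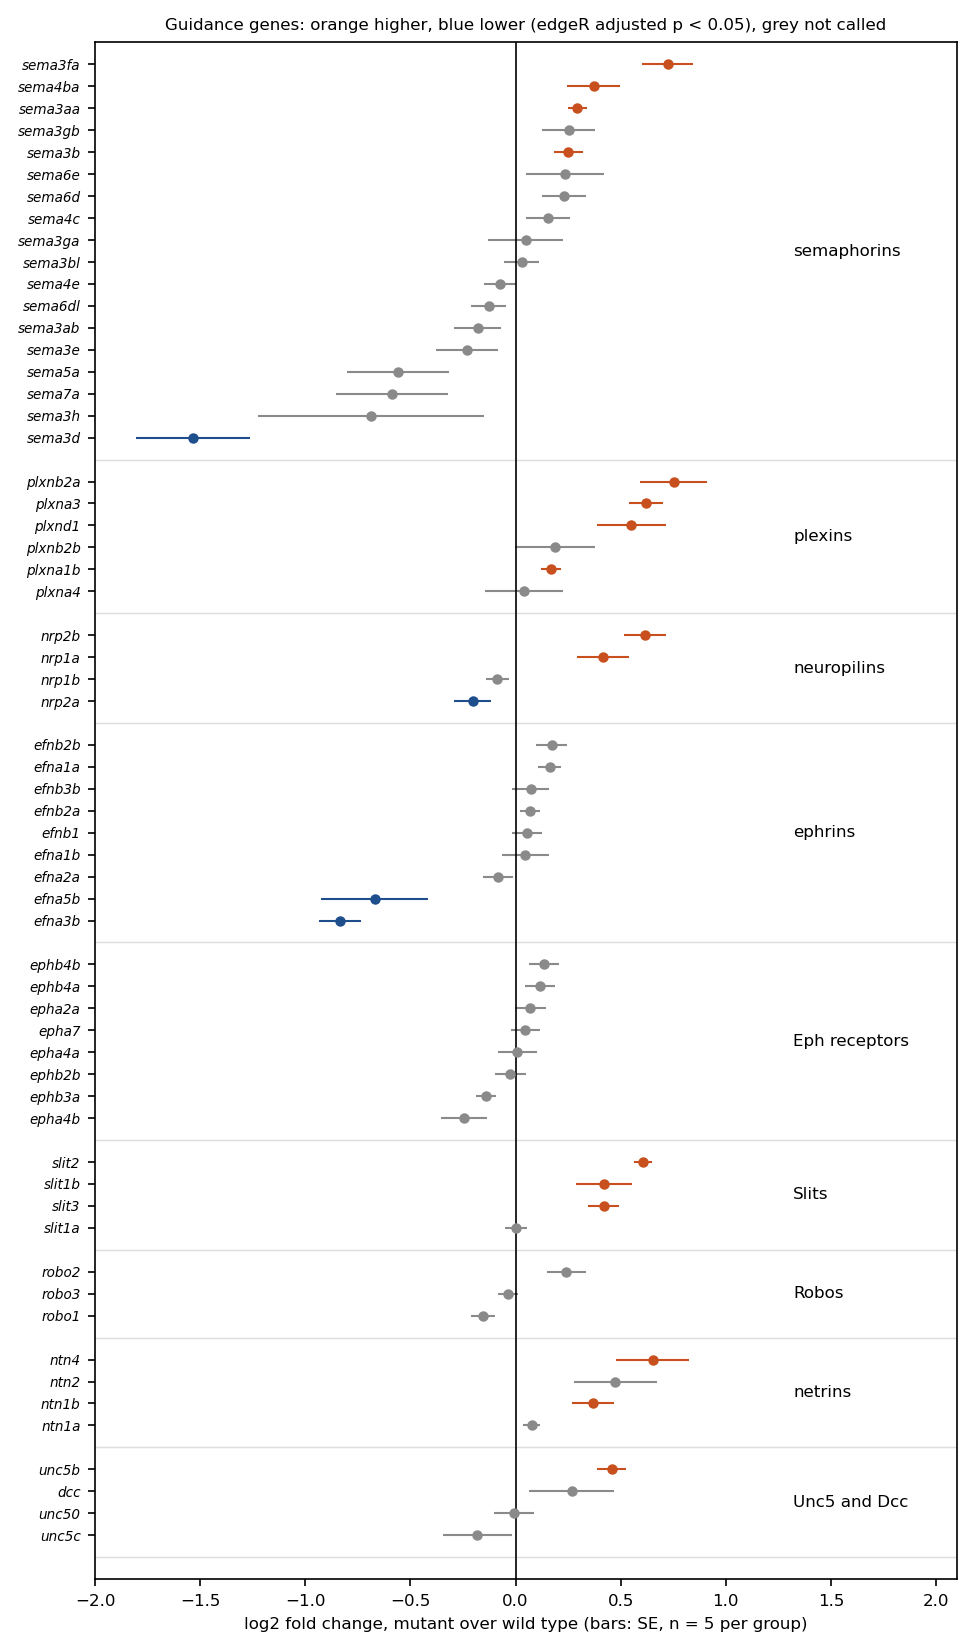
Log2 fold change of each of the 60 genes, mutant over wild type, with SE bars (5 libraries per group), grouped by family. Orange points are higher and blue points lower at an edgeR adjusted p under 0.05, and grey points did not pass; sema3d has the largest change (-1.53), and the 8 Eph receptors lie between -0.24 and 0.13.

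Among the semaphorins the single decrease was by far the largest change of any guidance gene. sema3d encodes a secreted semaphorin that in zebrafish guides axons and neural crest cells. It was at 48.9, 23.3, 43.4, 57.2 and 29.7 CPM in wild-type replicates 1 to 5, and at 14.5, 16.2, 14.4, 9.76 and 15.1 CPM in mutant replicates 1 to 5. The groups did not overlap, although the wild-type libraries spread over more than a doubling, with wild-type replicate 2 lowest and replicate 4 highest. The log2 fold change was -1.53 ± 0.27 (SE), or 0.345 times the wild-type level (edgeR adjusted p = 6.01e-05).

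The other 3 called genes of class 3 rose. sema3fa, a counterpart of mammalian Sema3F, which acts through neuropilin 2, was at 10.6, 14.3, 9.85, 10.6 and 9.56 CPM in wild type. In the mutant it was at 17.9, 19.0, 17.2, 15.8 and 20.9 CPM, every library above all wild-type libraries, a log2 fold change of 0.72 ± 0.12 (edgeR adjusted p = 2.31e-04). sema3aa is a copy of the Sema3A gene, whose product repels motor axons. It lay at 74.1, 62.5, 68.1, 67.3 and 71.2 CPM in wild type and at 85.2, 82.9, 81.5, 84.0 and 87.0 CPM in the mutant. These groups too were separate, with little spread in the mutant, and the rise was 0.29 ± 0.04 on the log2 scale (edgeR adjusted p = 5.60e-04). sema3b, a further secreted semaphorin, rose by 0.25 ± 0.07, from a range of 23.9 to 28.0 CPM to one of 28.6 to 35.1 CPM (edgeR adjusted p = 0.0172, and 0.0504 without mutant replicate 2).

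Of the 8 semaphorins outside class 3, which are bound to the membrane, sema4ba rose. It averaged 12.3 ± 1.83 CPM in wild type and 16.0 ± 2.13 CPM in mutant libraries (SD, n = 5), with overlapping groups, and its log2 fold change was 0.37 ± 0.13. The edgeR adjusted p was 0.0217, and the call ended without mutant replicate 2 (0.0502) or 3 (0.0636). sema5a, a transmembrane semaphorin, had a log2 fold change of -0.56 ± 0.24 and did not pass (edgeR adjusted p = 0.0525). It was called lower in 5 of the 17 alternative fits described below. The remaining members of the family that did not pass ran from -0.69 ± 0.54 for sema3h, which had 4 to 39 reads per library, to 0.25 ± 0.13 for sema3gb.

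Some semaphorin genes are neighbours, and differences between neighbours were not tested. In the RefSeq gene order of GRCz12tu, sema3d, sema3ab and sema3e follow one another among tested genes. sema3d fell, as above, and sema3ab averaged 51.0 ± 7.56 CPM in wild type and 45.0 ± 3.76 CPM in mutant libraries (SD, n = 5, adjusted p = 0.142 by edgeR). Without wild-type replicate 1, sema3ab passed as lower (log2 fold change -0.25, adjusted p = 0.0265 by edgeR). sema3e, whose product in mouse binds plexin D1 without a neuropilin, was at 14.9 ± 2.86 and 12.7 ± 1.53 CPM (SD, n = 5; adjusted p = 0.176 by edgeR). sema3b and sema3bl are also neighbours, and sema3bl was at 17.8 ± 0.632 and 18.1 ± 2.44 CPM (SD, n = 5; adjusted p = 0.828 by edgeR).

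All 4 called plexin genes rose, 4 of 6 tested (66.7%, against 20.6% of all tested genes). plxnb2a encodes a class B plexin, the receptor type for class 4 semaphorins. It was at 52.2, 45.9, 74.0, 74.7 and 50.7 CPM in wild type and at 101, 97.9, 94.7, 89.8 and 117 CPM in the mutant. The wild-type values fell into a higher pair (replicates 3 and 4) and a lower trio, and all mutant values lay above both. Its log2 fold change, 0.75 ± 0.16, was the largest increase of any guidance gene (edgeR adjusted p = 3.17e-04). plxna3, which in zebrafish is needed for motor axons to leave the spinal cord at their proper exit points, was at 49.6, 60.4, 67.9, 64.9 and 57.2 CPM in wild type. In the mutant it was at 90.5, 95.2, 91.6, 94.4 and 89.6 CPM. The mutant values lay close together and all above wild type, at 1.54 times the wild-type level (edgeR adjusted p = 1.38e-05).

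The other called plexins were less firm. plxnd1, which in zebrafish keeps the sprouts of trunk vessels between somites on course, had 51 to 99 reads per library. It was at 2.71, 2.62, 2.84, 2.96 and 3.26 CPM in wild type and at 5.11, 4.74, 4.95, 3.09 and 3.24 CPM in the mutant. Mutant replicates 1 to 3 were high and replicates 4 and 5 lay within the wild-type range. The log2 fold change was 0.55 ± 0.16 (edgeR adjusted p = 0.0219), and the call ended without mutant replicate 1 (0.0599), 2 (0.0550) or 3 (0.0566). plxna1b rose by 0.17 ± 0.05 (edgeR adjusted p = 0.0334), a call that ended in 7 of the 10 fits without 1 library (0.0566 to 0.0782). plxna4 and plxnb2b had log2 fold changes of 0.04 ± 0.18 and 0.19 ± 0.19 and did not pass.

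Neuropilins bind class 3 semaphorins and also vascular endothelial growth factors, and their copies moved unequally. nrp2b was at 122, 138, 165, 158 and 165 CPM in wild type and at 245, 235, 225, 201 and 238 CPM in the mutant. Every mutant library lay above all wild-type libraries, and the log2 fold change was 0.62 ± 0.10, or 1.53 times the wild-type level (edgeR adjusted p = 4.20e-05). nrp2a was at 71.8, 81.5, 84.5, 96.1 and 74.6 CPM in wild type and at 71.5, 76.3, 66.3, 64.5 and 76.1 CPM in the mutant. It fell by 0.20 ± 0.09 on the log2 scale with overlapping groups. Its adjusted p by edgeR, 0.0498, was at the threshold, and the call ended with RLE size factors, with either other filter on low counts, with limma-voom and in 6 of the 10 fits without 1 library.

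nrp1a was at 89.1, 92.5, 139, 120 and 98.2 CPM in wild type and at 149, 145, 141, 138 and 145 CPM in the mutant. Wild-type replicate 3 reached the mutant range, while the other 4 wild-type libraries stayed below it. The log2 fold change was 0.42 ± 0.12 (edgeR adjusted p = 0.00425). nrp1b averaged 39.4 ± 2.76 CPM in wild type and 37.1 ± 1.71 CPM in mutant libraries (SD, n = 5) and did not pass (edgeR adjusted p = 0.308).

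**Figure D2:**
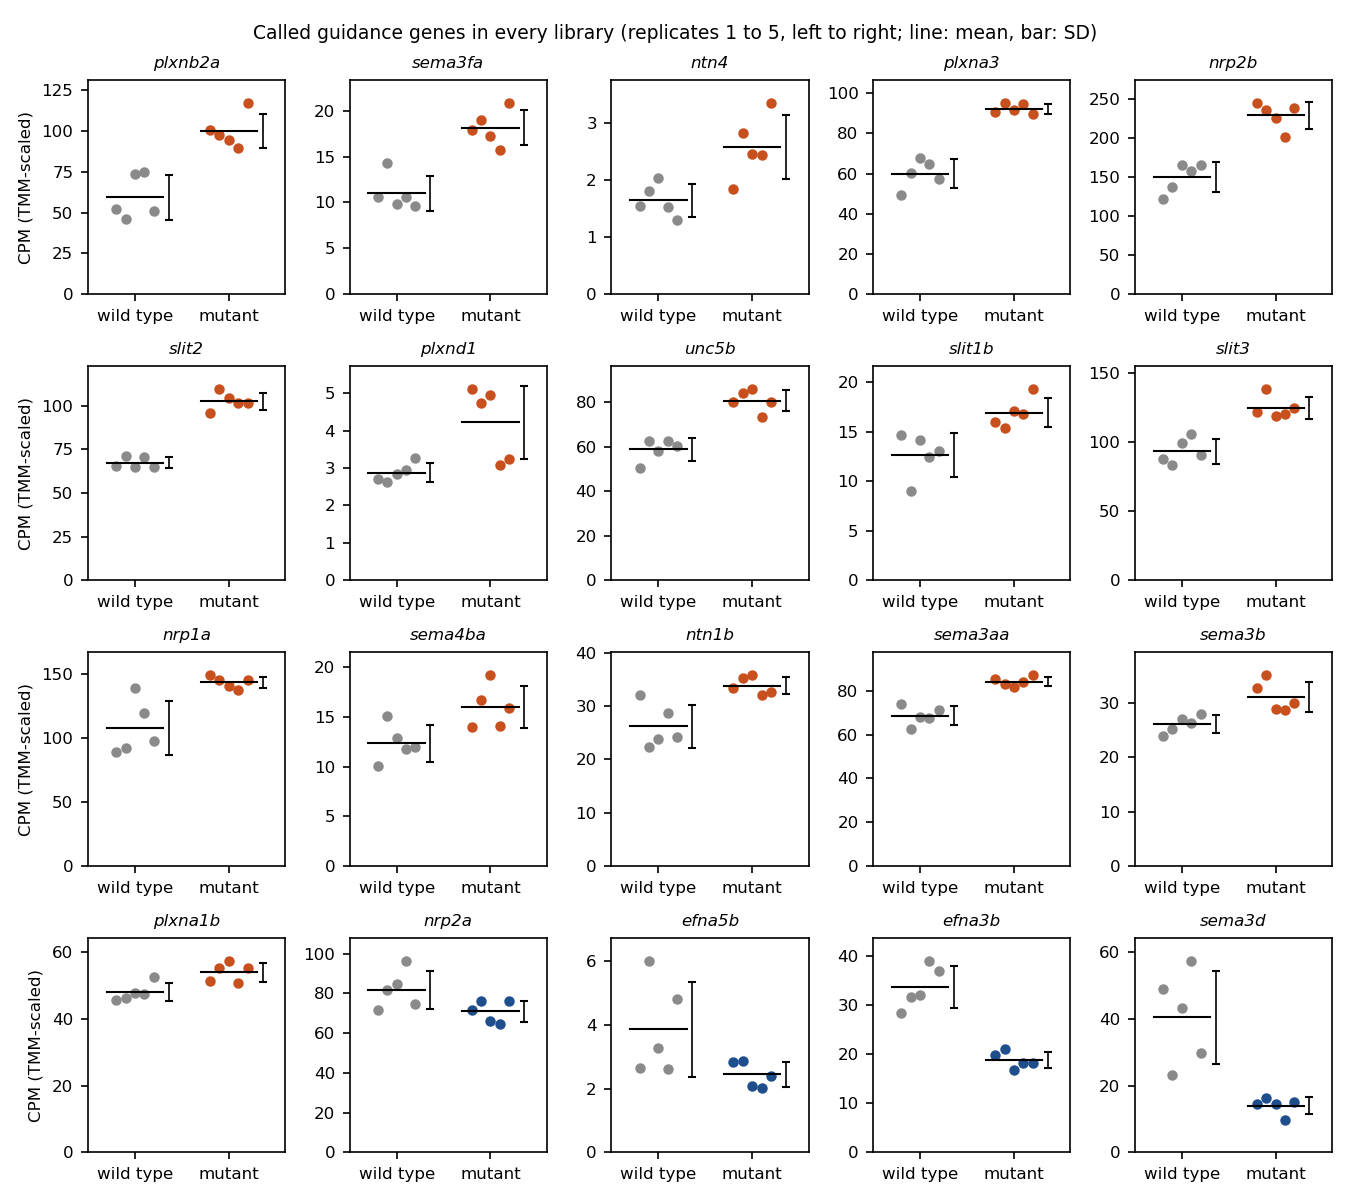
CPM of the 20 called guidance genes in each library, wild type in grey and mutant in orange (higher) or blue (lower), with replicates 1 to 5 from left to right, a line at the mean and a bar for the SD. The groups are apart for sema3d, efna3b, slit2 and plxna3, and overlap for nrp1a, plxnd1, nrp2a and efna5b.

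Many zebrafish genes are kept as an a and a b copy from an ancient duplication of the fish genome. The balance of copies was compared within each library as the log2 ratio of a to b. Library scaling enters this ratio only through a small count added to every gene (prior count 2). The ratio was fitted with limma over all 1148 pairs of tested genes whose symbols differ by a last letter a or b. That rule does not itself show that both are duplicates. The ratio changed in 4 of 11 guidance pairs (adjusted p under 0.05 over all pairs), against 38.3% of all pairs. The median absolute change was 0.30 in guidance pairs and 0.31 in all pairs. Reads of copies that resemble each other may have been split between them in counting, and shares of reads below are not corrected for gene length.

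The largest shift was that of neuropilin 2. nrp2a held 37.1, 37.2, 33.9, 37.9 and 31.1% of nrp2a and nrp2b reads in wild type and 22.6, 24.5, 22.7, 24.3 and 24.2% in the mutant. The groups were separate, and the log2 ratio fell by 0.82 ± 0.10 (limma adjusted p = 1.59e-04). In neuropilin 1 the shift went to the a copy: nrp1a held 71.1 to 76.9% of reads in wild-type libraries and 78.8 to 80.3% in the mutant, again without overlap (log2 ratio 0.52 ± 0.10 higher, limma adjusted p = 0.00194).

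In the Sema3A pair the a copy gained as well, with sema3aa at 52.6 to 64.1% of reads in wild-type libraries and 63.2 to 67.3% in the mutant. Wild-type replicate 1 was the library that overlapped, and the log2 ratio was 0.47 ± 0.12 higher (limma adjusted p = 0.0131). In the Slit1 pair the b copy gained. slit1a held 85.1 to 89.7% of reads in wild-type libraries and 80.2 to 85.7% in the mutant, a log2 ratio lower by 0.43 ± 0.13 (limma adjusted p = 0.0281). That call ended in 5 of the 10 fits without 1 library (0.0517 to 0.0640).

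The other 7 pairs did not pass. The 95% interval of the change in log2 ratio was -0.21 to 0.17 for ephb4a and ephb4b, -0.35 to 0.14 for efnb2a and efnb2b and -0.17 to 0.37 for efna1a and efna1b. The interval was wider for epha4a and epha4b (-0.06 to 0.55) and for sema3ga and sema3gb (-0.65 to 0.30). For ntn1a and ntn1b it was -0.56 to -0.05 and for plxnb2a and plxnb2b 0.06 to 1.17, before adjustment for the number of pairs. The adjusted p-values of these pairs by limma were 0.0634 and 0.0763. The ntn1 pair passed without wild-type replicate 1 (0.0184) and the plxnb2 pair without wild-type replicate 3 (0.0362).

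**Figure D3:**
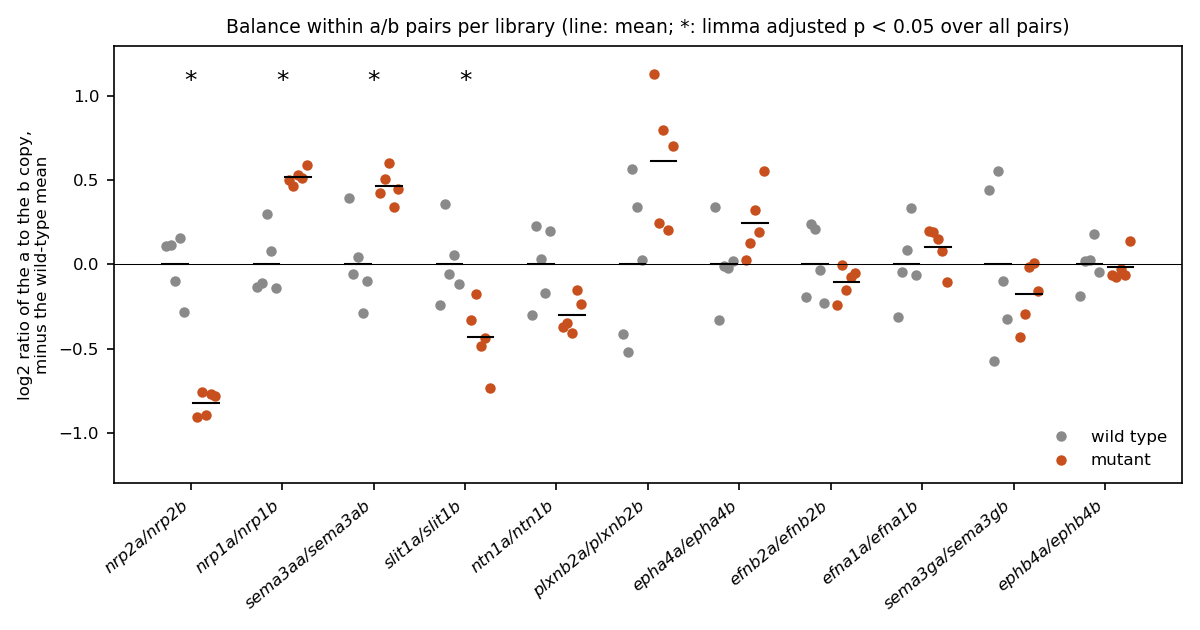
Log2 ratio of the a to the b copy in each library for the 11 guidance pairs, set to 0 at the wild-type mean, wild type in grey and mutant in orange, with a line at the group mean. Stars mark the 4 pairs past an adjusted p of 0.05 over all pairs; the libraries of the nrp2 and nrp1 pairs do not overlap, and the shifts go in opposite directions.

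Of the 4 Slit genes 3 rose (75%, against 20.6% of all tested genes). Of the 3 Robo receptor genes 0 passed, against 42.2% of all tested genes called in either direction. With so few genes these shares are only rough. slit2 was at 65.7, 71.2, 64.9, 70.6 and 64.9 CPM in wild type and at 95.8, 110, 104, 101 and 102 CPM in the mutant. With little spread in either group and no overlap, slit2 had the smallest p of all guidance genes (log2 fold change 0.60 ± 0.04, edgeR adjusted p = 8.83e-07). slit3 was at 87.7, 83.8, 99.2, 106 and 90.9 CPM in wild type and at 122, 139, 119, 120 and 125 CPM in the mutant. It was separate between groups and rose by 0.42 ± 0.07 on the log2 scale (edgeR adjusted p = 1.91e-04).

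slit1b was at 14.7, 9.04, 14.1, 12.4 and 13.0 CPM in wild type and at 16.0, 15.4, 17.1, 16.8 and 19.3 CPM in the mutant. It rose by 0.42 ± 0.13 without overlap, although wild-type replicate 1 came close to the lowest mutant library (edgeR adjusted p = 0.0121). slit1a averaged 84.4 ± 5.11 CPM in wild type and 84.5 ± 5.00 CPM in mutant libraries (SD, n = 5) and had a log2 fold change of 0.00 ± 0.05.

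The Robo genes lay within a log2 fold change of -0.15 to 0.24. robo2, which zebrafish retinal axons need to reach the tectum, averaged 11.2 ± 1.31 CPM in wild type and 13.3 ± 1.04 CPM in mutant libraries (SD, n = 5; edgeR adjusted p = 0.0718). Its neighbour in gene order, robo1, was at 50.9 ± 1.74 and 45.7 ± 3.80 CPM (SD, n = 5; edgeR adjusted p = 0.0682). robo3, needed for axons to cross the midline, was at 131 ± 7.64 and 128 ± 6.15 CPM (SD, n = 5; edgeR adjusted p = 0.622). Beside the 0 of 3 called by edgeR, 2 Robo genes had an unadjusted p under 0.05, and DESeq2 and limma-voom also called 0. Without mutant replicate 2, robo1 passed (-0.20, edgeR adjusted p = 0.0218).

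Among netrins and their receptors, ntn1b, ntn4 and unc5b rose. ntn1b, expressed at the ventral midline of the neural tube, was at 32.0, 22.3, 23.8, 28.6 and 24.3 CPM in wild type and at 33.4, 35.2, 35.8, 32.0 and 32.7 CPM in the mutant. Wild-type replicate 1 reached the lowest mutant library, and the rise was 0.37 ± 0.10 on the log2 scale (edgeR adjusted p = 0.00582). ntn1a, its copy, was at 123 ± 6.13 and 130 ± 5.24 CPM (SD, n = 5) and did not pass (edgeR adjusted p = 0.221).

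The ventral midline is a source of Slits and netrins, and most listed markers of floor plate and notochord were higher in the mutant. Of 10 such genes 8 rose (80% against 20.6% of all tested genes) and 1 fell (10% against 21.6%), and their summed level was 573 to 747 CPM in wild type and 842 to 910 CPM in the mutant. The 9 calls were not all stable: with 1 library left out 6 to 9 remained, the fewest after dropping wild-type replicate 3. The sum leaned on col2a1a, whose mean went from 366 to 477 CPM, and on col8a1a, from 97.8 to 137 CPM. The marker that fell, col9a1a, had few reads and went from a mean of 2.04 to one of 0.769 CPM. The part of these markers in the Slit and netrin results was not tested.

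unc5b encodes a netrin receptor that repels and that is also known from vessels. It was at 50.4, 62.5, 58.3, 62.5 and 60.3 CPM in wild type and at 80.0, 84.2, 86.0, 73.5 and 80.4 CPM in the mutant. The groups were well apart, and the level in the mutant was 1.37 times that in wild type (edgeR adjusted p = 9.23e-05). ntn4, with 29 to 60 reads per library, rose from a mean of 1.64 ± 0.285 to one of 2.58 ± 0.557 CPM (SD, n = 5; log2 fold change 0.65 ± 0.17, edgeR adjusted p = 0.0211). Mutant replicate 1, at 1.83 CPM, lay within the wild-type range. It did not pass without wild-type replicate 5 (0.0510) or mutant replicate 5 (0.0609).

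Endothelium is a cell type where unc5b, plxnd1 and nrp1a are known to act. Of its listed markers the count table held 10, of which 4 rose (40%, against 20.6% of all tested genes) and 0 fell (0%, against 21.6%). In either direction 40% of these markers were called, against 42.2% of all tested genes. By edgeR 6 had an unadjusted p under 0.05, and DESeq2 and limma-voom each called 4. The levels of the 10 markers summed to 307 to 346 CPM in wild type and 362 to 419 CPM in the mutant. The sum leaned on lmo2, whose mean went from 88.4 to 102 CPM, and on etv2, from 67.1 to 75.8 CPM, which was not called. The count called was 2 without wild-type replicate 4 and also 2 without mutant replicate 1. The log2 fold changes of all 10 markers ran from 0.02 to 0.61, the highest that of sox7 (edgeR adjusted p = 4.41e-05). The other called markers were egfl7 (0.36), clec14a (0.26) and lmo2 (0.20). Among the markers that did not pass were kdrl (0.17, edgeR adjusted p = 0.0842) and cdh5 (0.02, edgeR adjusted p = 0.925). The part of endothelial markers in the results for unc5b, plxnd1 and nrp1a was not tested.

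The netrin receptor gene dcc, with 25 to 56 reads per library, averaged 1.86 ± 0.451 CPM in wild type and 2.23 ± 0.458 CPM in mutant libraries (SD, n = 5; edgeR adjusted p = 0.356). At this depth its log2 fold change of 0.27 carried an SE of 0.20. unc5c was at 6.07 ± 1.06 and 5.36 ± 1.19 CPM (SD, n = 5) and did not pass (edgeR adjusted p = 0.395). The log2 fold change of unc50, the Golgi gene, was -0.01 ± 0.10.

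In the ephrin and Eph system 2 of 9 ephrins fell, both of them ephrin-A ligands (22.2%, against 21.6% of all tested genes). Of the 8 Eph receptors 0 passed, against 42.2% of all tested genes called in either direction. Ephrin-A ligands are tethered to the membrane by a lipid anchor, and ephrin-B ligands span it. efna3b was at 28.3, 31.7, 32.1, 38.9 and 37.0 CPM in wild type and at 19.9, 21.0, 16.9, 18.1 and 18.2 CPM in the mutant. The groups were separate, and the mutant was at 0.56 times the wild-type level (log2 fold change -0.84 ± 0.10, edgeR adjusted p = 1.13e-05). efna1b lies next to efna3b in gene order and averaged 47.6 ± 7.46 CPM in wild type and 49.2 ± 3.55 CPM in mutant libraries (SD, n = 5; edgeR adjusted p = 0.727).

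efna5b, whose mammalian counterpart patterns the map of retinal axons, had 41 to 126 reads per library. It was at 2.66, 5.99, 3.27, 2.60 and 4.82 CPM in wild type and at 2.83, 2.87, 2.09, 2.03 and 2.40 CPM in the mutant. Wild-type replicates 2 and 5 were high, and replicates 1 and 4 lay within the mutant range. It fell by 0.67 ± 0.25 (edgeR adjusted p = 0.0372), and the call was lost on leaving out wild-type replicate 2 (0.116) or 5 (0.0941), on leaving out mutant replicate 3 (0.0808), 4 (0.0845) or 5 (0.0680), and with limma-voom (0.0605).

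The ephrin and Eph genes of the somite, rhombomere and vessel borders that are named next did not pass. Their log2 fold changes ran from 0.01 for epha4a to 0.17 for efnb2b, the latter as large as that of plxna1b, which was called. epha4a, a receptor of rhombomere and somite borders, averaged 70.4 ± 6.89 CPM in wild type and 70.9 ± 7.36 CPM in mutant libraries (SD, n = 5; edgeR adjusted p = 0.941). efnb2a, a ligand at those borders and a gene of arteries, was at 37.5 ± 2.42 and 39.3 ± 1.13 CPM (SD, n = 5; edgeR adjusted p = 0.397). Its copy efnb2b was at 40.9 ± 4.02 and 46.0 ± 2.48 CPM (SD, n = 5; edgeR adjusted p = 0.0732), and it passed without wild-type replicate 1 (0.0230). ephb4a, the venous receptor that pairs with efnb2a, was at 74.4 ± 5.62 and 80.6 ± 6.13 CPM (SD, n = 5; edgeR adjusted p = 0.177).

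epha7 had the most reads of the Eph receptors, at 104 ± 6.04 and 108 ± 9.83 CPM (SD, n = 5; edgeR adjusted p = 0.590). The lowest p of the receptors was that of epha4b, with a log2 fold change of -0.24 ± 0.11 (edgeR adjusted p = 0.0549). Beside the 0 of 8 called by edgeR, 2 Eph receptors had an unadjusted p under 0.05, DESeq2 called 1 and limma-voom called 0. Without 1 library, edgeR called epha4b lower when wild-type replicate 1 or 3 or mutant replicate 2 was left out, and ephb3a lower when wild-type replicate 4 or mutant replicate 2 was. Among the 4 ephrin-B genes edgeR called 0, with 1 at an unadjusted p under 0.05 and 0 called by DESeq2 or limma-voom. For these genes a missed threshold does not show that levels were equal.

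Genes that work beside these ligands and receptors moved in both directions. A list of co-receptors, adhesion partners and cytoplasmic signalling genes had 57 tested members, of which 9 rose and 12 fell. The share called was 36.8%, against 42.2% of all tested genes. The share called higher was 15.8%, against 20.6%, and the share called lower 21.1%, against 21.6%. The median log2 fold change of the list was -0.05. ablim1b, which links actin to netrin signalling in worms, went from 23.2 ± 5.54 to 52.6 ± 3.42 CPM (SD, n = 5; edgeR adjusted p = 7.92e-06). gipc1, an adaptor that binds neuropilin 1 in mammals, rose by 0.62 ± 0.10 on the log2 scale. flrt3, a membrane protein that binds Unc5 receptors, rose by 0.32 ± 0.04.

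The 12 decreases included rgmd, dpysl3 and cxcr4b. rgmd, of the repulsive guidance molecule family, went from 256 ± 15.9 to 211 ± 7.14 CPM (SD, n = 5; edgeR adjusted p = 4.17e-04). dpysl3, a collapsin response mediator gene of growing axons, fell by 0.47 ± 0.09 and the chemokine receptor gene cxcr4b by 0.31 ± 0.06 on the log2 scale.

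Markers of other cell types that make or read these cues were called to unequal extents, and their part in the results above was not tested. Against the 42.2% of all tested genes called, the share was 57.1% for neuron, 62.5% for neural crest, 71.4% for hindbrain, 63.6% for muscle, 12.5% for eye field and 27.3% for presomitic mesoderm and somite borders. In the same order, the share called lower was 50, 50, 57.1, 54.5, 0 and 9.09%, against 21.6% of all tested genes. The share called higher was 7.14, 12.5, 14.3, 9.09, 12.5 and 18.2%, against 20.6%. Of 14 tested neuron genes 1 rose and 7 fell, and the 15 neuron genes in the table, 1 of them untested, had sums of 265 to 291 CPM in wild type and 222 to 247 CPM in the mutant. Of 8 neural crest genes 1 rose and 4 fell, with sums of 264 to 297 CPM against 237 to 262 CPM, and the 5 calls became 3 without wild-type replicate 4 or mutant replicate 2 and 2 without mutant replicate 3 or 5. Of 7 hindbrain genes 1 rose and 4 fell, with overlapping sums of 291 to 329 CPM against 273 to 295 CPM. Of 11 muscle genes 1 rose and 6 fell, with overlapping sums of 4814 to 5922 CPM against 4370 to 5131 CPM. Of 8 eye field genes 1 rose, and of 11 genes of presomitic mesoderm and somite borders 2 rose and 1 fell, both with overlapping sums. The 3 calls of the latter list became 1 without wild-type replicate 2, 3 or 5 and without mutant replicate 1, 3, 4 or 5. All listed markers of these 8 lists that are in the table had reads.

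**Figure D4:**
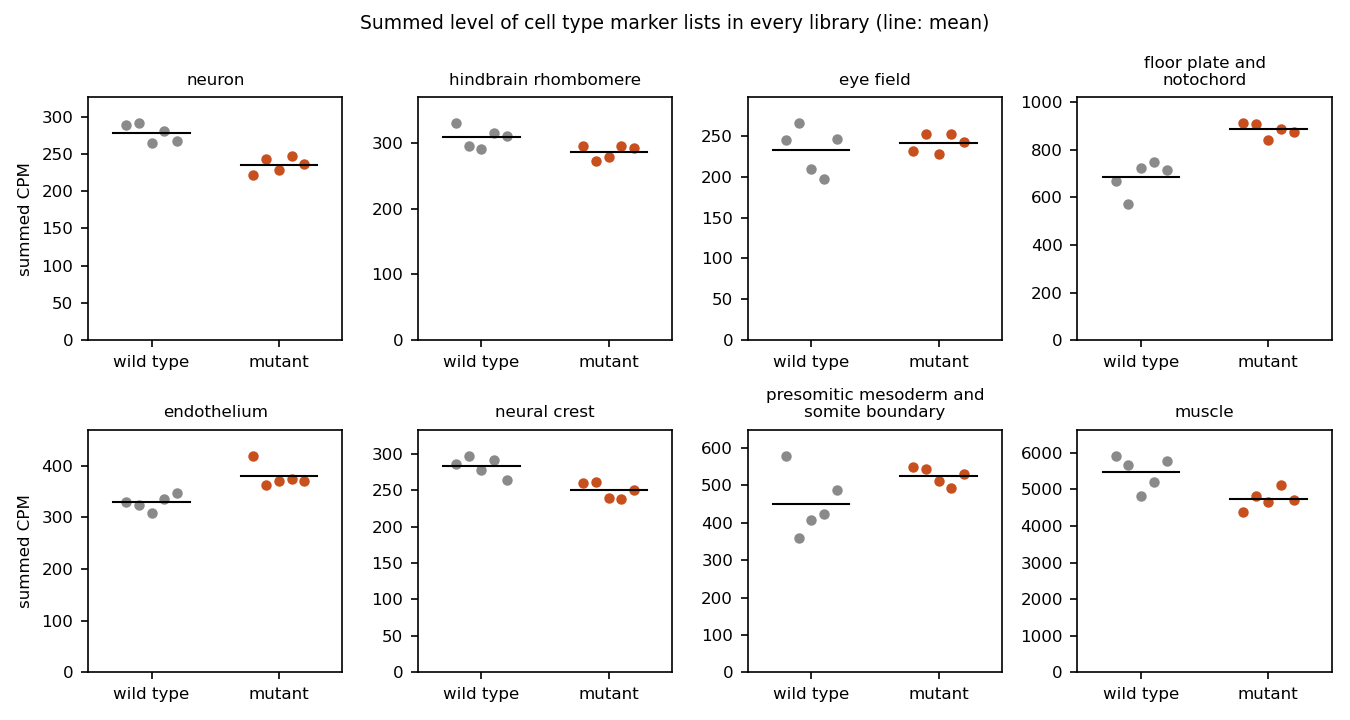
Summed CPM of 8 marker lists in each library, wild type in grey and mutant in orange, with a line at the group mean. The mutant sums lie above wild type for floor plate and notochord (842 to 910 against 573 to 747 CPM) and for endothelium, and below it for neuron and neural crest.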

How the data were processed

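The authors deposited raw counts, 1 column for each of the 10 libraries and 1 row per gene symbol. The submitters' processing notes name the builds mm10 and danRer10 and the tools cutadapt 3.4, STAR 2.7 and DESeq2 1.30.0 without roles. The sources used here do not give the counting program, annotation or strand setting, so reads of overlapping antisense genes cannot be told apart. The authors' own comparison table was not used. Libraries were grouped by genotype. Counts were filtered with filterByExpr (11871 of 14650 genes kept), scaled by TMM and tested with edgeR 4.0.16 (R 4.3.3), genotype the single term. CPM are TMM-scaled, and SEs come from the spread of log2 CPM (prior count 2) in each group. Pair ratios were fitted with limma 3.58.1. If replicates share a clutch, p-values measure only the spread between these samples.

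The fits were also run on simulated counts with planted changes, drawn with the spread of these same data. The outcome of that run is not given here. Named genes were called members changed by at least 0.5 (log2) without overlap and at a mean of at least 1 CPM, at most 12 per direction; members among 28 listed symbols with known trunk or midline roles, of which 25 are in the count table used here and 3 (sema3fb, epha4l and robo4) are not; the member with most reads in each family; called pairs; and 4 genes per direction of the signalling list, of which 1 in each direction is not reported here. Other called members, and further members named, were chosen after their values were seen. Of the 93 symbols of the signalling list 58 were matched, 6 by an older symbol through RefSeq. Members and lists were chosen with earlier results of these data known. RefSeq (GRCz12tu) served for names and gene order alone. Replicate numbers did not pair libraries: correlations of same-numbered deviations were -0.06 to 0.07.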

Additional observations from a re-analysis of the deposited data

Results flagged for a closer look

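Within the 120 groups of 5 libraries examined (60 genes, each in wild type and mutant), 6 held a library far from the other 4, and chance alone flags about 1 group in 20. unc5c in mutant replicate 5 was at 7.47 CPM, with the remaining mutant libraries at 4.74 to 4.89 CPM. sema3fa in wild-type replicate 2 was at 14.3 CPM, against 9.56 to 10.6 CPM. sema3d in mutant replicate 4 was at 9.76 CPM, against 14.4 to 16.2 CPM. slit3 in mutant replicate 2 was at 139 CPM, against 119 to 125 CPM. efna1a in mutant replicate 1 was at 55.9 CPM, against 48.5 to 50.4 CPM. ntn2 in wild-type replicate 2 was at 1.14 CPM, against 0.696 to 0.816 CPM, with 13 to 30 reads per library.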

How the results depend on the processing

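Of the 20 called members, 13 (11 higher, 2 lower) were called in the same direction under all 17 alternatives: other scaling, tools, filters, the replicate block and each library left out. Higher members numbered 12 to 17 in these fits, beside 2146 to 2611 of all genes. Lower members numbered 2 under limma-voom and 2 to 9 without 1 library, beside 2541 and 2317 to 2701 of all genes. The 2 constant ones were sema3d and efna3b. Leaving out unc50, chosen after seeing the data, could change neither count, since it was not called and the fit stayed the same. Guidance pairs with a changed ratio numbered 3 to 5. With the replicate block 16 members were higher and 5 lower, 2378 and 2451 of all genes, and 4 guidance pairs changed. Among the calls that differed, plxnd1 (0.0507) and nrp2a (0.0842) no longer passed and efnb2b (0.0499) and epha4b (0.0335) did (edgeR adjusted p). Not every member newly called lower with the block is named here. The replicate numbers have no stated shared origin. Among uncalled values, the sign turned for slit1a with library size alone (-0.0049, from 0.0020) and without 1 library (-0.030 to 0.032), for epha4a without 1 library (-0.045 to 0.048), for efna1b (-0.025 to 0.10) and for the ephb4 pair (-0.064 to 0.027). Genes with few reads (dcc, ntn2, ntn4, sema3h, sema7a) limit what small changes can be seen.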
